A study of Mus musculus with 6 samples.

Results

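The glucocorticoid receptor gene Nr3c1 and 6 genes known as its targets, Klf15, Klf9, Fkbp5, Tsc22d3, Sgk1 and Zbtb16, were followed by RNA-seq in acinar cells of the mouse pancreas, which make and secrete digestive enzymes. The 7 genes were taken by symbol from the 55367 symbols counted, and Klf15 and Klf9 were chosen by their TPM in these same libraries, as the highest Klf genes, so that place is a description and not a test. All 6 libraries form 1 group, from untreated mice labelled Pdx1-Cre; Klf5-mCherry-CreERT2, in which the Pdx1 promoter drives Cre in pancreatic epithelium. Each library was made from 300 sorted GFP-positive cells, and the labels name neither the GFP reporter nor the age or number of mice. A number in the deposited names parts replicates 4 to 6, called set B here, from replicates 1 to 3, called set A. Its meaning is not given, so the sets are a possible batch and no study group, and p-values between them measure only the spread between these libraries, which may be technical.

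Glucocorticoids enter cells and bind the receptor, which is held ready in the cytoplasm by HSP90 chaperones and then moves to the nucleus to act on genes near its binding sites. Fkbp5, Tsc22d3 (also called GILZ), Sgk1, Zbtb16, Klf9 and Klf15 are among the genes it raises in many tissues. Glucocorticoids are long known to support enzyme synthesis and zymogen granule formation in the exocrine pancreas.

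Promoter windows were searched for letters the receptor is known to read. Each window had 300 bases (250 before to 50 after each annotated start, RefSeq, build GRCm38.p6). Windows of 5 of the 7 genes were used, 12 in all, and none of Nr3c1 or Zbtb16. The full palindrome, AGAACA followed after any 3 bases by TGTTCT and searched on both strands, was in 1 of the 12 windows and in 3 of all 32851 windows, or 0.00913%. The one among these genes reads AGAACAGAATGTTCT and belongs to Sgk1, at chr10:21993701-21993715, its first base 189 bases before the start. The single site AGAACA, one arm of the palindrome, which the palindrome contains on each strand, was in 4 of the 12 windows (3 of Sgk1 and 1 of Tsc22d3) and in 19.0% of all windows. The GC box GGGCGG, a sequence that Klf and Sp factors bind, was in 6 of the 12 and in 35.7% of all. A match is only a match of letters, and its absence from a window says nothing about sites elsewhere. The 250 bases before the start are printed 5′ to 3′ on the gene's strand for the Sgk1 window with the palindrome, for Klf15 and Klf9 as the leading Klf genes, and for Fkbp5, with single receptor sites (AGAACA on either strand) and GC boxes (GGGCGG on either strand) in capitals.
Sgk1 (chr10:21993640-21993889, plus strand): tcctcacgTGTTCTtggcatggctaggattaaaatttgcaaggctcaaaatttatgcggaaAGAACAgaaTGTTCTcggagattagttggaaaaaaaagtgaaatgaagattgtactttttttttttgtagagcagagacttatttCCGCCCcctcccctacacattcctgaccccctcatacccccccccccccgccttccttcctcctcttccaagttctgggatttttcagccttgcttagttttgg
Klf15 (chr6:90462326-90462575, plus strand): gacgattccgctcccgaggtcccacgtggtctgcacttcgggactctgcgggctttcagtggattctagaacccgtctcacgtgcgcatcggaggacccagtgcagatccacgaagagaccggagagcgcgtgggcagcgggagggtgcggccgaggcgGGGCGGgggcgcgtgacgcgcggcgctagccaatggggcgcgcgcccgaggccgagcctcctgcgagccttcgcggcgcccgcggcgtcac
Klf9 (chr19:23140976-23141225, plus strand): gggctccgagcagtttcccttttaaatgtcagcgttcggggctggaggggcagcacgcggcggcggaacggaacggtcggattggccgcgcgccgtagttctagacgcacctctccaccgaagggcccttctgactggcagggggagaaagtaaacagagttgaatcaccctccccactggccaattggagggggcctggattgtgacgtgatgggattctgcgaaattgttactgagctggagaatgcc
Fkbp5 (chr17:28486150-28486399, minus strand): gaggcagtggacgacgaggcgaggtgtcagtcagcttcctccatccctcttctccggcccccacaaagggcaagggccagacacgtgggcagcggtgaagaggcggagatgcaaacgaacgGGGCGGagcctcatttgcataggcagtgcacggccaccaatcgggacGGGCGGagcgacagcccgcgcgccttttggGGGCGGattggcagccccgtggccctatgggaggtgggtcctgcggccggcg
The Sgk1 window has 3 single sites, of which a pair forms the palindrome, and 1 GC box. The printed stretch of Klf15 has 1 GC box and that of Fkbp5 has 3, with 1 more in the part of its window not printed, while the printed Klf9 stretch holds none of these letters.

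Total counts were 4670819 to 7072270 per library, of which ribosomal RNA genes took 38.1% to 60.9%. Counts cover whole gene spans with introns, so each gene's background was estimated from olfactory and vomeronasal receptor genes, which gave 26.6 to 111 counts per Mb in 5 libraries and 327 in replicate 5. Levels between genes are in TPM, counts per kb of exon scaled to the same total in each library, and levels between libraries are in TMM CPM, library-scaled counts adjusted by edgeR's TMM factors. All 8 acinar markers were present, with summed levels of 105495 to 166682 TPM in set B and 270132 to 308622 TPM in set A. The 6 islet markers summed to 37.8 to 2224 TPM in set B and 8.90 to 39.4 TPM in set A. Those of adipocytes, a tissue rich in glucocorticoid targets, summed to at most 9.37 TPM. Among them the leptin gene Lep had 0 counts in 5 libraries. Adipoq had 24 counts in replicate 5, and Fabp4 had 19, 14 and 24 in replicates 1, 3 and 6. Duct markers were also present in every library, with sums of 50.8 to 171.2 TPM and a median of 74.6 TPM. Markers of endothelium, fibroblasts, and myeloid and lymphoid cells summed to at most 13.7 TPM in any library.

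The receptor gene Nr3c1 (chromosome 18, 39410545 to 39519421, minus strand, build mm10) was measured in every library. Its counts were 100, 99 and 98 in set B and 117, 105 and 89 in set A. Its level was 3.09 TPM at the lowest, 3.79 at the median and 6.00 at the highest, with a mean of 4.04 ± 1.03 (SD, n = 6), and it ranked 1662 of 21963 protein-coding genes. The sets overlapped in TMM CPM, at 14.97, 17.2 and 14.2 in set B and 17.7, 19.7 and 14.8 in set A. The highest TPM was in replicate 5, where the 99 counts were only 2.78 times the 35.6 expected from background, against 8.10 to 40.4 times in the other 5 libraries. Transcripts of the receptor were thus present throughout at a similar scaled level, with replicate 5 the least certain.

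Zbtb16, which encodes the zinc finger repressor PLZF, had the highest level of the 7 by exon length. It reached 10.5 TPM at the lowest, 17.8 at the median and 23.2 at the highest, with a mean of 17.8 ± 4.31 (SD, n = 6). Its 119 counts in replicate 5 were 2.0 times background, and its 309 to 416 counts in the other libraries were 15.3 to 80.4 times background. Zbtb16 spans 181926 bp with 5283 bp of exons, and by span length its level was 0.774 ± 0.242, against 4.82 ± 2.40 for Klf15. The place of Zbtb16 above Klf15 therefore holds by exon length only. Expected background made up 5.41% of its counts, and whether the rest came from exons or introns cannot be read from these counts.

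Klf15, a Krüppel-like zinc finger factor known in liver and muscle for the control of amino acid breakdown, was second by exon length and first by span. It lies on chromosome 6, 90462576 to 90475238, plus strand. Its counts were 95, 50 and 113 in set B and 237, 158 and 179 in set A. Its level had a mean of 13.9 ± 4.42 TPM, with 8.34 TPM at the lowest, 14.5 at the median and 19.1 at the highest. Each of the 3 set B libraries lay below every set A library. Background was expected to make up 0.888% of its counts, the smallest share of the 7 genes, and even in replicate 5 its counts were 12.1 times background.

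Klf9, the basic transcription element binding protein and a direct glucocorticoid target in many cell types, varied least of the 7 in TPM but not in CPM. Its level was 8.03 TPM at the lowest, 10.2 at the median and 11.0 at the highest, a mean of 9.71 ± 1.31 and a coefficient of variation of 13.5%, against 24.1% to 31.7% for the other 6 genes. In CPM its coefficient of variation was 19.8%, above the 13% of Sgk1 and the 18% of Nr3c1. The gene (chromosome 19, 23141226 to 23168134, plus strand) had 162, 83 and 171 counts in set B and 174, 176 and 193 in set A. Klf15 lay above Klf9 in 6 of 6 libraries, by 0.43 ± 0.44 log2 units, but the gap was 0.08 on average in set B and 0.79 in set A. In set B the 2 genes were thus close to level.

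Within the Klf family of 17 genes, Klf15 and Klf9 together with Klf6 stood apart. Klf6, a factor induced by injury in many tissues and the next gene outside the choice, had 4.56 TPM at the lowest, 7.79 at the median and 9.22 at the highest, below both in 6 of 6 libraries. By span length Klf6 averaged 5.62 and lay above Klf15 at 4.82 and Klf9 at 2.59. Klf15 made up 24.9%, 17.8% and 27.5% of the family's summed TPM in set B and 44.2%, 36.0% and 36.5% in set A, while Klf9 made up 17.2% to 24.6% in set B and 18.8% to 23.3% in set A. The share of Klf15 was lower in every set B library, and that of Klf9 overlapped. In replicate 5 the family sum included Klf12 at 7.80 TPM, with counts at 0.86 times background, which lowers both shares there. Klf13 followed at 3.32 ± 0.641 TPM and Klf12 at 2.86 ± 2.51, of which 68.5% was expected background. Klf5, whose locus the genotype names, had 0.784 ± 0.123 TPM and Klf14 the lowest mean, 0.0414 TPM. Of the 10 Klf genes tested between the sets, described further on, none passed edgeR, with 2 under an unadjusted p of 0.05 and a median log2 difference of -0.36, and DESeq2 called only Klf15. Of those 2 genes 1 was lower, as were 9.82% of all genes at that p, and 1 higher, as were 16.4%, and DESeq2 called 2.6% of all genes as lower. Without replicate 4 edgeR called 3 of the 10 as lower and 1 as higher, against 5.72% and 16.9% of all genes. For the gene called as higher, 63.4% of the counts over all libraries were expected background.

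**Figure D1:**
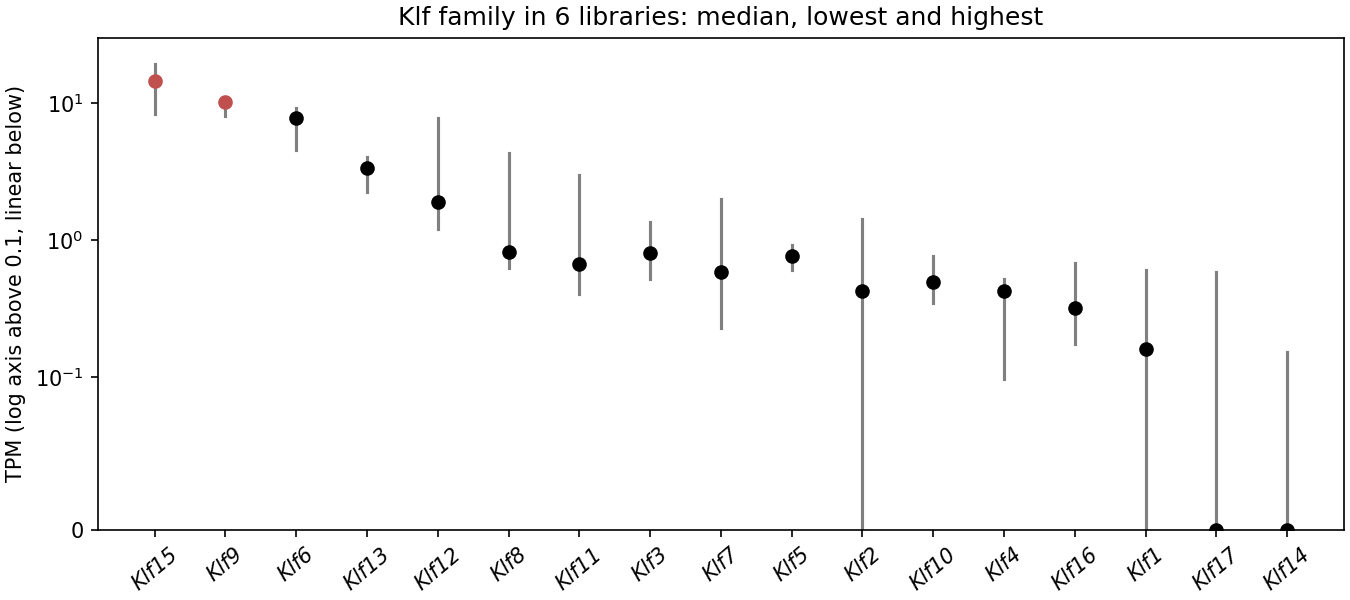
Level of the 17 Klf genes in TPM by exon length (log axis above 0.1, linear below). Points are medians over 6 libraries and lines run from the lowest to the highest library, with Klf15 and Klf9 in red; Klf15 spans 8.34 to 19.1 TPM and Klf9 8.03 to 11.0 TPM.

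Sgk1, a serum- and glucocorticoid-regulated kinase that acts on ion channels and transporters, had 5.67 TPM at the lowest, 8.14 at the median and 10.4 at the highest. Its counts were 153, 105 and 174 in set B and 143, 92 and 130 in set A. On the TPM scale set B lay wholly above set A, at 9.21, 9.98 and 10.4 TPM in set B and 6.58, 5.67 and 7.07 TPM in set A. In TMM CPM the sets overlapped, at 22.9, 18.2 and 25.2 in set B and 21.7, 17.2 and 21.7 in set A. The separation of the sets thus rests on the scale, on which the median gene also differs.

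Tsc22d3, a leucine zipper protein that restrains inflammatory signalling, had 2.72 TPM at the lowest, 4.70 at the median and 5.92 at the highest (chromosome X, 140539528 to 140600659, minus strand). Its counts were 40, 36 and 65 in set B and 114, 72 and 92 in set A, with no overlap in counts or in TPM. Fkbp5, an HSP90 cochaperone that lowers the receptor's affinity for hormone, had 2.53 TPM at the lowest, 3.97 at the median and 5.61 at the highest. Its counts of 81, 80 and 88 in set B were again all below the 168, 129 and 199 of set A. In replicate 5 the counts of both genes were near background, at 1.80 times for Tsc22d3 and 2.07 times for Fkbp5. Of the 7 genes, Klf15 and Klf9 had more than 3 times the expected background in all 6 libraries, as had 12.3% of protein-coding genes, and the remaining 5 did so in 5 libraries.

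**Figure D2:**
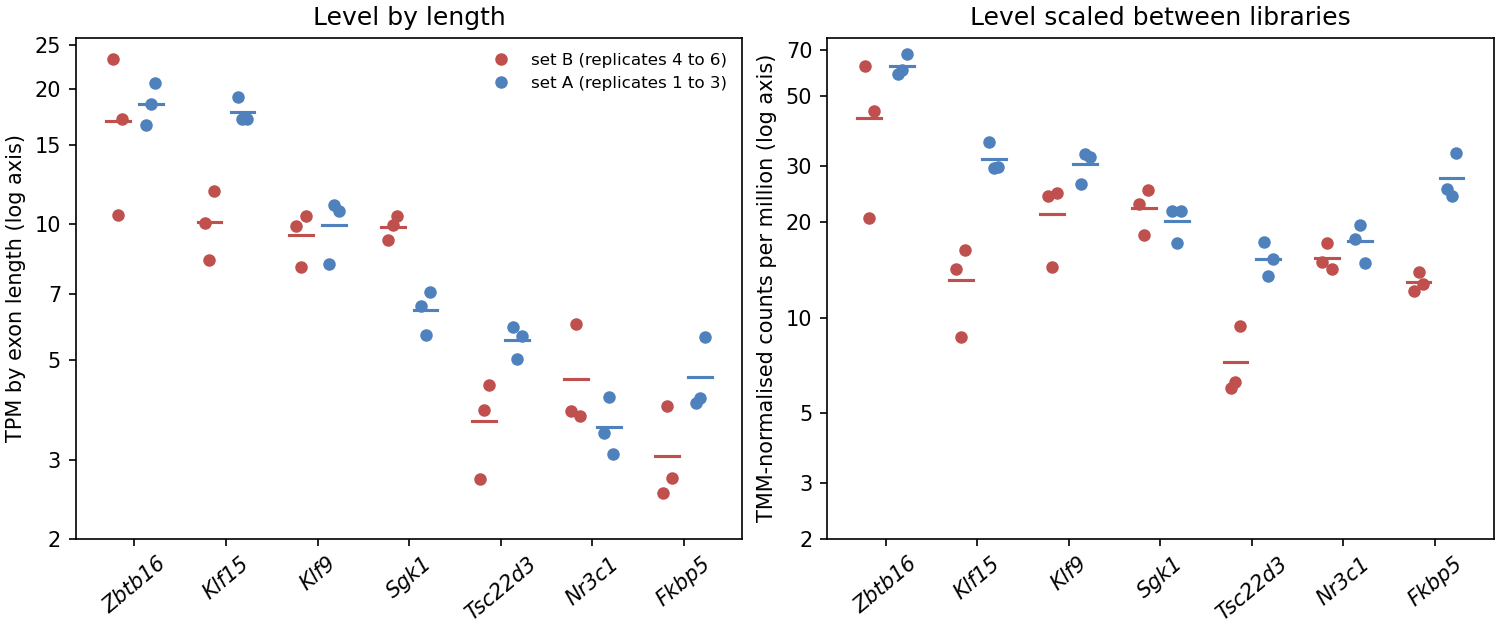
Level of the 7 genes per library in TPM by exon length (left) and in TMM CPM (right), both on log axes, with set B left of set A. Points are libraries and bars the means of 3; Klf15, Tsc22d3 and Fkbp5 lie lower in every set B library on both scales, and Sgk1 is separated on the left scale and overlaps on the right.

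**Figure D3:**
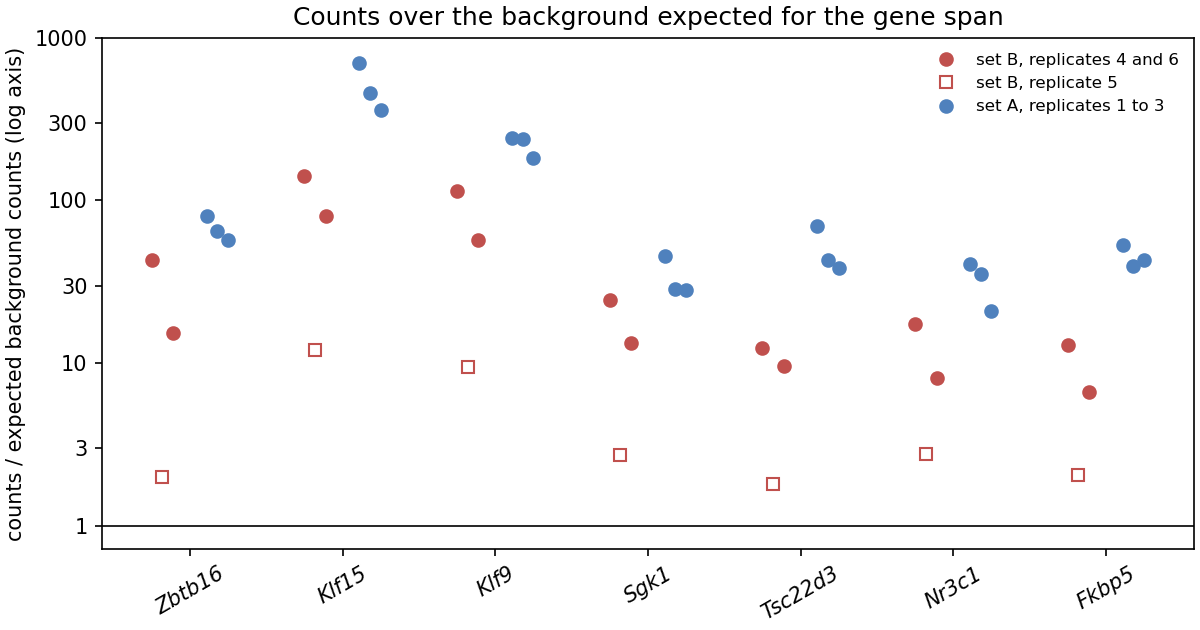
Counts of each gene divided by the count expected from background over its span, on a log axis, with set B left of set A and replicate 5 as open squares. A value of 1 is background; replicate 5 is lowest for every gene, from 1.80 for Tsc22d3 to 12.1 for Klf15.

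By mean level the order was Zbtb16, Klf15, Klf9, Sgk1, Tsc22d3, Nr3c1 and Fkbp5. Neighbours mostly differed by less than their spread. Zbtb16 minus Klf15 was 0.35 ± 0.45 log2 units (SD of the differences within libraries, n = 6), higher in 5 of 6. Klf9 minus Sgk1 was 0.25 ± 0.40, higher in 5 of 6, Tsc22d3 minus Nr3c1 0.14 ± 0.51 and Nr3c1 minus Fkbp5 0.07 ± 0.46, each higher in 4 of 6. Sgk1 minus Tsc22d3, at 0.71 ± 0.59 and higher in 6 of 6, had the largest mean of the 6 gaps, but it averaged 1.24 in set B and 0.19 in set A, where Klf15 minus Klf9 at 0.79, Klf9 minus Sgk1 at 0.55 and Tsc22d3 minus Nr3c1 at 0.52 were wider. Tsc22d3 minus Nr3c1 averaged -0.24 in set B and 0.52 in set A, and Nr3c1 minus Fkbp5 0.44 in set B and -0.29 in set A, so the order of the lowest 3 genes differed between the sets. By span length Sgk1 minus Tsc22d3 was -0.0048 on average, and the order began with Klf15 and Klf9.

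Between the sets, 4 of the 7 genes had no overlap in TMM CPM, all lower in set B, namely Klf15, Klf9, Fkbp5 and Tsc22d3. Over all 8723 genes tested, 17.1% had such a pattern of set B below set A. For 3 of the 4 the log2 difference was also under -1, as for 5.57% of all genes. Klf15 had 14.2, 8.69 and 16.4 TMM CPM in set B and 35.9, 29.6 and 29.8 in set A, a log2 difference of -1.27 ± 0.28 (SE, n = 3 and 3). Fkbp5 had 12.1, 13.9 and 12.8 in set B and 25.5, 24.2 and 33.1 in set A, a difference of -1.09 ± 0.24. Tsc22d3 had 5.99, 6.25 and 9.43 in set B and 17.3, 13.5 and 15.3 in set A, a difference of -1.09 ± 0.28. In all 3 the gap between the nearest libraries of the sets was larger than the range within either set, in TMM CPM without logs. In log2 units this held for Fkbp5 but not for Klf15 or Tsc22d3.

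Klf9 had 24.3, 14.4 and 24.8 TMM CPM in set B and 26.4, 33.0 and 32.1 in set A, a log2 difference of -0.52 ± 0.27, with replicate 5 furthest down, and it was -0.33 without replicate 5 and -0.78 without replicate 4. Zbtb16 had 62.3, 20.7 and 44.8 in set B and 59.0, 60.5 and 67.8 in set A, a difference of -0.55 ± 0.36, with replicate 4 within the range of set A, and it was -0.23 without replicate 5 and -1.06 without replicate 4. Nr3c1 gave -0.17 ± 0.24 and Sgk1 0.13 ± 0.24. In this fit of all libraries the difference was smaller than its standard error for the receptor gene and Sgk1. For Nr3c1 it was larger than that error with no filter on low counts, at -0.49 ± 0.42. It was also larger without replicate 3, at -0.41 ± 0.34, without replicate 4, at -0.323 ± 0.321, and without replicate 5, at -0.27 ± 0.20. Sgk1 without replicate 5 gave 0.24 ± 0.18.

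By edgeR's quasi-likelihood test with Benjamini-Hochberg adjustment 0 of the 7 genes passed, while 0% of all genes passed as lower and 0.0115% as higher in set B. The adjusted p of 0.094 for Klf15, Fkbp5 and Tsc22d3 is a tied value, their unadjusted p values being 0.0015, 0.0013 and 0.0038, and 9.82% of all genes were lower at an unadjusted p under 0.05. The adjusted p was 0.26 for Klf9, 0.37 for Zbtb16, 0.69 for Nr3c1 and 0.76 for Sgk1. DESeq2 called Klf15 (adjusted p = 0.0075), Fkbp5 (0.011) and Tsc22d3 (0.031) as lower, against 2.6% of all genes. Without replicate 5, the library with the highest background, edgeR called the same 3 genes, at adjusted p values of 0.0016, 0.0016 and 0.014, against 4.07% of all genes, and the differences were -1.07 for Klf15, -1.16 for Fkbp5 and -1.01 for Tsc22d3. Without replicate 4 it also called those 3, against 5.72% of all genes, and with no filter on low counts the same 3, against 0.682%.

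The scale shifts all genes together, by a median log2 difference of 0.02 in TMM CPM, 0.19 in CPM, 0.53 in TPM and 1.09 in TPM without ribosomal RNA genes. These scales and span-length TPM differ mainly by 1 factor per library, so values relative to the median gene are nearly the same on each by construction. Klf15 lay at -1.30 to -1.35 log2 units from the median gene, Fkbp5 at -1.10 to -1.12 and Tsc22d3 at -1.11 to -1.12. Zbtb16 lay at -0.57 to -0.68, Klf9 at -0.55 to -0.62, Nr3c1 at -0.17 to -0.19 and Sgk1 at 0.08 to 0.11. The separation of the sets did depend on the scale. In TPM without ribosomal RNA genes the sets overlapped for Klf15, Fkbp5 and Tsc22d3, at log2 ratios of -0.27, -0.02 and -0.03. For Klf9 the sets overlapped in TPM, and set B lay wholly above set A in TPM without ribosomal RNA genes. Each of the 8 acinar markers in TMM CPM, and their summed TPM, was lower in every set B library, but in TPM Ptf1a, Bhlha15 and Rbpjl overlapped between the sets. The share of ribosomal RNA was higher in every set B library, and islet markers were highest in replicates 4 and 6. The part of these in the differences was not tested. In bulk libraries fewer cells of a type and less RNA per cell cannot be told apart.

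Ratios of counts within a library need no scaling between libraries. Klf15 had 0.62, 0.48 and 0.65 counts per Sgk1 count in set B and 1.66, 1.72 and 1.38 in set A. Fkbp5 per Sgk1 was 0.53, 0.76 and 0.51 in set B and 1.17, 1.40 and 1.53 in set A, and Tsc22d3 per Sgk1 0.26, 0.34 and 0.37 in set B and 0.80, 0.78 and 0.71 in set A. The sets were apart in all 3 ratios. Klf9 per Sgk1 was apart too, at 1.06, 0.79 and 0.98 in set B and 1.22, 1.91 and 1.48 in set A. So, barely, was Sgk1 per Zbtb16, with 0.3678 in replicate 4 against 0.3676 in replicate 1, while Nr3c1 per Sgk1 overlapped. Nr3c1 per Klf15, per Fkbp5 and per Tsc22d3 was apart and higher in set B, for Klf15 at 1.05, 1.98 and 0.87 against 0.49, 0.66 and 0.50 in set A. Klf15 per Klf9 was also apart, at 0.59, 0.60 and 0.66 in set B and 1.36, 0.90 and 0.93 in set A. In contrast, Fkbp5 per Tsc22d3 overlapped, at 2.02, 2.22 and 1.35 in set B and 1.47, 1.79 and 2.16 in set A, as did Klf15 per Fkbp5. Set against Klf9 or against Zbtb16, Fkbp5 and Tsc22d3 also overlapped between the sets, while Klf15 per Zbtb16 was apart, at 0.23, 0.42 and 0.37 in set B and 0.61, 0.49 and 0.44 in set A.

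**Figure D4:**
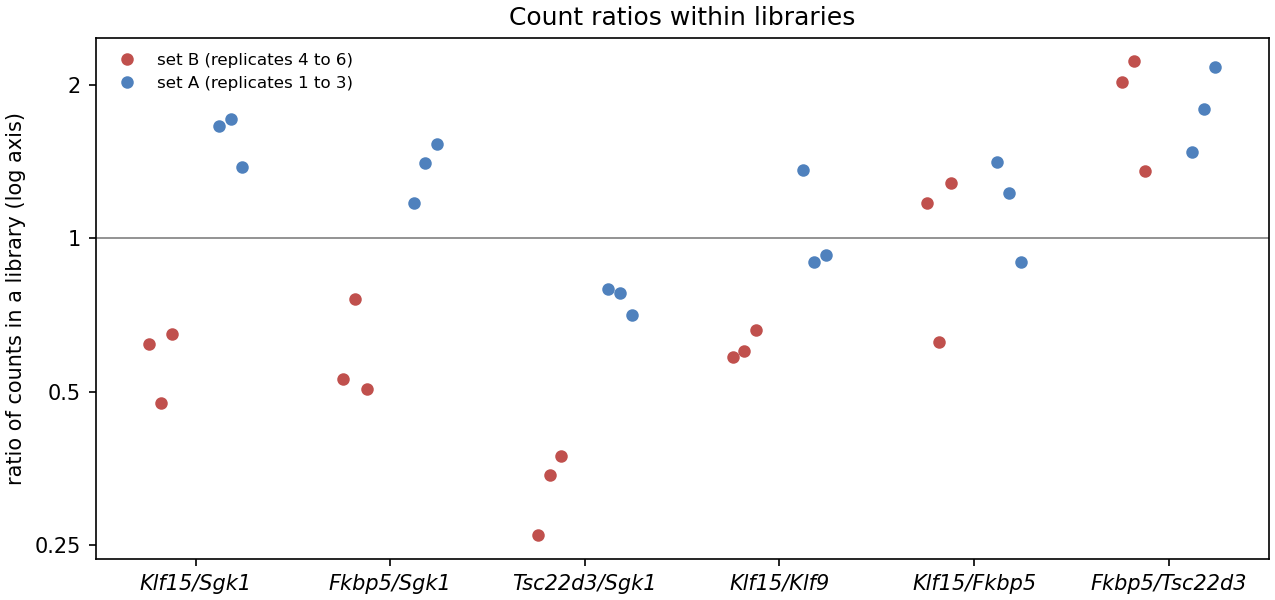
Ratios of counts of pairs of genes within each library on a log axis, with set B left of set A and 1 point per library. Ratios of Klf15, Fkbp5 and Tsc22d3 to Sgk1 and of Klf15 to Klf9 are lower in every set B library, and those of Klf15 to Fkbp5 and of Fkbp5 to Tsc22d3 overlap.

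The machinery that holds and serves the receptor was present. Among 18 chaperone and cofactor genes, 16 averaged at least 1 TPM, led by the HSP90 gene Hsp90ab1 at 33.5 ± 4.05 TPM, Bag1 at 19.7 ± 3.34, the HSC70 gene Hspa8 at 15.2 ± 3.03, Hsp90aa1 at 12.3 ± 3.11 and Fkbp4, which aids nuclear transport of the receptor, at 11.7 ± 3.0. The cyclophilin Ppid was lowest at 0.740 ± 0.398 TPM. Fkbp4 thus stood above its relative Fkbp5, at 3.82 ± 1.11 TPM. None of the 18 passed edgeR between the sets, 1 of them being lower at an unadjusted p under 0.05, against 9.82% of all genes, and DESeq2 called 0. Without replicate 4 edgeR called Ppid as lower, 1 of 18 genes, against 5.72% of all genes. Their median log2 difference was -0.15, against 0.02 over all genes tested.

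Of 12 genes of other steroid receptors and steroid access 3 reached a mean of 1 TPM. The mineralocorticoid receptor gene Nr3c2, whose product also binds corticosterone, had 4.26 ± 3.14 TPM, but its span of 345571 bp made 40.7% of its counts expected background. Esr1 averaged 1.12 TPM with 93.1% expected background, H6pd, which feeds cofactor to HSD11B1, 1.01 ± 0.553, Abcb1b 0.611 and Abcb1a 0.578 TPM. Hsd11b2, the enzyme that inactivates corticosterone, had 5 counts over all libraries. Hsd11b1, which regenerates the hormone, had no counts, but other counted genes cover all of it, and its 0 is not taken as absence. None of the 4 genes tested passed edgeR, with 3 higher at an unadjusted p under 0.05, against 16.4% of all genes, and DESeq2 called Nr3c2 and Esr1 as higher in set B, against 9.1% of all genes, as did edgeR without replicate 5, against 4.04%, while without replicate 4 it called 5 of 6 as higher, against 16.9%.

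Of 32 further genes known as glucocorticoid targets 17 reached a mean of 1 TPM. The metallothionein Mt1, which binds zinc and copper, led at 572 ± 384 TPM, followed by Gadd45g at 27.7 ± 7.41, Mt2 at 24.8 ± 10.9, Errfi1, a brake on EGFR signalling, at 14.6 ± 4.74 and the cell cycle inhibitor gene Cdkn1a at 12.6 ± 3.49 TPM. Anxa1 had no counts and lies inside another gene, and 73.5% of the exon length of Mt2 also lies in one, so its value is uncertain. Of the 18 tested, 16 were lower in set B in the edgeR fit, with a median log2 difference of -0.59, and 8 had no overlap, all below, against 17.1% of all genes. None passed edgeR, with 4 lower at an unadjusted p under 0.05, against 9.82% of all genes. DESeq2 called Mt1, Mt2 and Cdkn1a as lower, against 2.6% of all genes, and edgeR called the same 3 without replicate 5, against 4.07%, and without replicate 4, against 5.72%. Mt1 had 215, 57.2 and 148 TMM CPM in set B and 653, 782 and 729 in set A, a difference of -2.36 ± 0.44 (SE).

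Genes linked to Klf15, most of them genes of amino acid breakdown in liver and muscle, were examined beside it, 13 in all. The list also held the glucose transporter gene Slc2a4 and the potassium channel subunit gene Kcnip2, which are not genes of amino acid breakdown. Bckdhb had 20.8 ± 2.61 TPM, Bckdk, the kinase that restrains branched-chain breakdown, 15.5 ± 3.46, the branched-chain transaminase gene Bcat2 10.5 ± 3.03, Bckdha 5.14 ± 1.72 and the alanine transaminase gene Gpt2 3.40 ± 0.497, while Aldh4a1 had no counts and lies inside another gene. Of the exon length of Bckdha 61.7% also lies in another gene, as does 28.0% of that of Bcat2, so their levels are uncertain. Of the 9 tested 8 were lower in set B in the edgeR fit, with a median log2 difference of -0.64, and 5 had no overlap, all below, against 17.1% of all genes. The 1 gene not lower was Kcnip2, at 0.23 ± 0.59 (SE), so the 8 lower genes were all of amino acid breakdown. Bckdk had 24.1, 14.2 and 28.1 TMM CPM in set B and 48.2, 36.9 and 43.3 in set A, and Bcat2 19.6, 8.69 and 16.4 in set B and 37.7, 29.2 and 30.1 in set A. None passed edgeR, with 4 lower at an unadjusted p under 0.05, against 9.82% of all genes. DESeq2 called Bcat2 and Prodh, both lower, against 2.6% of all genes, the last named after its values were seen. Without replicate 5 edgeR called 5 of the 9 as lower, against 4.07% of all genes, and without replicate 4 it called 3, against 5.72%.

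**Figure D5:**
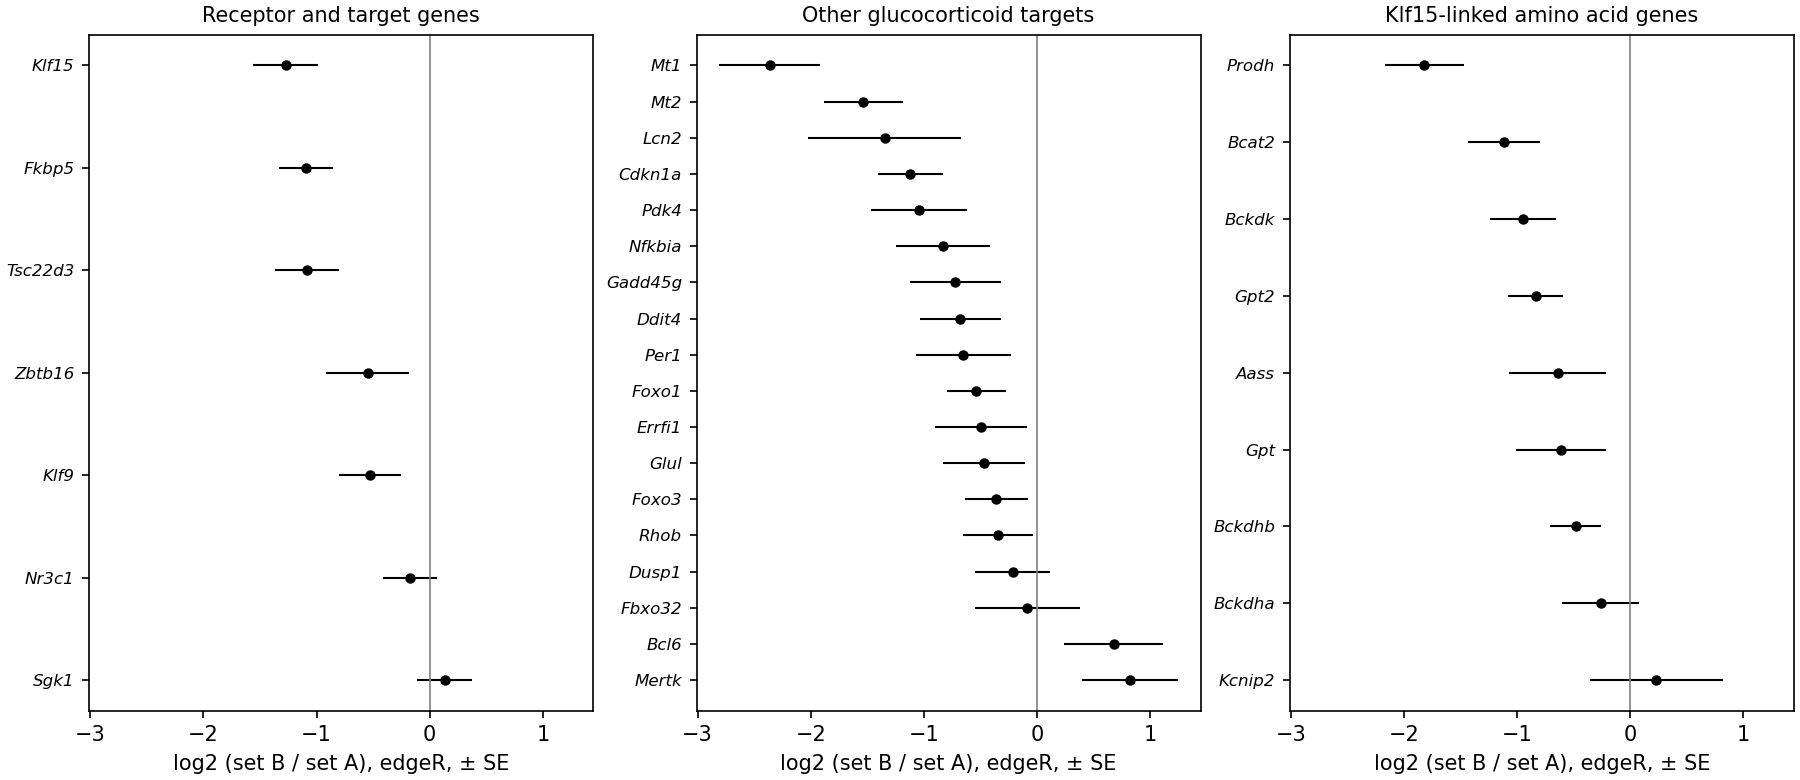
Log2 difference of set B over set A by edgeR with its standard error, for the 7 genes (left), the 18 further glucocorticoid targets tested (middle) and the 9 Klf15-linked genes tested (right), each ordered from the most negative at the top. The right panel includes Kcnip2, which is not a gene of amino acid breakdown. Most points lie left of 0, with Klf15 at -1.27, Mt1 at -2.36 and Sgk1 at 0.13.

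Relatives of the members differed in level. Tsc22d3 had the highest mean of its family of 4, with Tsc22d1 at 3.62 ± 0.197, Tsc22d2 at 1.06 ± 0.253 and Tsc22d4 at 0.730 ± 0.298 TPM. Its mean of 3.66 TPM in set B was level with 3.67 for Tsc22d1, and in replicate 4 it was lower, at 2.72 against 3.77 TPM, while in set A it averaged 5.53 against 3.58 TPM. None of the 4 passed edgeR, with Tsc22d3 alone lower at a p under 0.05 before adjustment, and DESeq2 called only Tsc22d3, against shares of 9.82% and 2.6% over all genes. Sgk1 had the highest mean of its list of 12, in which the ubiquitin ligase gene Nedd4 had 6.87 ± 0.60, Ndrg1, a substrate of the kinase, 2.91 ± 1.05, Pdpk1 1.43 ± 0.364, Nedd4l 1.23 ± 1.12 and Scnn1b 0.0944 TPM. That lead came from set B, where Sgk1 averaged 9.87 and Nedd4 6.87 TPM, while in each set A library Nedd4 was higher, with means of 6.44 for Sgk1 and 6.88 for Nedd4. Of the 6 tested none passed edgeR, with 1 lower and 1 higher at an unadjusted p under 0.05, against 9.82% and 16.4% of all genes. DESeq2 called Ndrg1 as lower, as did edgeR without replicate 4 and without replicate 5, at a log2 difference of -1.39 ± 0.25 in the edgeR fit of all libraries. Without replicate 4 Nedd4l was called as higher, but its counts were only 1.20 times background in replicate 5 and 2.10 times in replicate 6. The shares over all genes were 2.6% lower by DESeq2, 4.07% lower without replicate 5, and 5.72% lower and 16.9% higher without replicate 4. Among 15 Fkbp genes the ER member Fkbp11 was highest at 74.0 ± 16.0 TPM, followed by Fkbp2 at 24.7 ± 3.85, Fkbp4, Fkbp1a at 6.29 ± 2.16 and Fkbp8 at 3.97 ± 0.751, with Fkbp10 lowest at 0.121. Of the 9 tested none passed edgeR, with 1 lower at a p under 0.05 before adjustment, and by DESeq2 only Fkbp5 was called, against the same 9.82% and 2.6% of all genes.

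Genes with the most similar course over the 6 libraries were found by the root mean square difference of log2(TPM + 1), each gene centred on its own mean, among protein-coding genes with a mean of 5 TPM or more. Nearest to Klf15 were Rnase4, a secreted ribonuclease, at 0.06 log2 units, the amino acid transporter gene Slc38a5 at 0.06 and Acot13 at 0.08, where the median of 1325 genes was 0.47. Nearest to Klf9 were Rab2a at 0.07, Uck2 at 0.08 and Adk at 0.09, against a median of 0.31. For Zbtb16 they were Hspa8 at 0.08, Ndel1 at 0.09 and Aup1 at 0.10, and for Sgk1 Pfn1 at 0.07, Slc39a11 at 0.08 and Pcca at 0.08. For Nr3c1 they were Sh3bgrl, Ndufc2 and Rap1a, each at 0.06. Fkbp5 was nearest to Degs1 at 0.11, Arl8b at 0.15 and Magoh at 0.16, and Tsc22d3 to Mcee at 0.12, Tmem11 at 0.13 and C1galt1c1 at 0.13. None of the nearest genes of Fkbp5 or Tsc22d3 was as near as those of Klf15, and all these values share the same libraries and totals.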

How the data were processed

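RNA-seq was deposited for 6 libraries of sorted mouse acinar cells, made with a modified Smart-seq2 protocol and 12 cycles of preamplification. Per the submitters' processing notes, reads were processed with Trim Galore 0.6.4, FastQC, STAR 2.7.9a, SAMtools and featureCounts on build mm10. The deposited files hold unnormalised read counts, 1 value for each symbol. Their Length column, another quantity, is the full interval from first to last base for each of the 55253 symbols that have a single interval. Strand setting, annotation release and treatment of multi-mapped reads are not given in the sources used here. The labels name genomic DNA as the molecule, but the protocol is one for RNA.

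Exon lengths came from GENCODE M21 for 55144 of 55367 symbols, 53365 of them matched by symbol and 1779 by coordinates. TPM totals included ribosomal RNA genes, and log2 levels used a pseudocount of 1. No exon of the 7 genes lay inside the span of another counted gene. Background used 1765 olfactory and vomeronasal receptor genes. Replicates 4 to 6 were compared with replicates 1 to 3 by edgeR 4.0.16 (TMM, filterByExpr, quasi-likelihood test, Benjamini-Hochberg over all genes tested, threshold 0.05) in R 4.3.3, with DESeq2 1.42.0 as an alternative. The edgeR fit was tested on simulated data. Python 3.11.15, pandas 2.3.3 and numpy 2.4.6 were used for levels. Alternatives were DESeq2, RLE size factors, no filter on low counts, no ribosomal RNA genes, a pseudocount of 0.1, gene span for exon length, each library left out, and background subtraction. Levels and their order were described without a test. The members and gene lists were chosen with earlier results of these data known. Genes named were the 7 members, Klf6, Klf5, Nr3c2, Hsd11b1 and Hsd11b2, the 5 highest and the lowest gene of each list, any gene past edgeR's threshold, and the 3 genes nearest each member. Slc2a4 and Kcnip2 were also named as genes outside amino acid breakdown, and Txnip, Tgm2, Cebpb and Cebpd for their overlap with other genes. Total counts set the precision, and a count of 0 allows up to 3 counts, or 0.424 to 0.642 CPM, for counting error only. No 2 libraries agreed within sampling noise. 1 gene of the lists is not reported here.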

Additional observations from a re-analysis of the deposited data

Results flagged for a closer look

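Values were checked for a single library far from the other 5, by the gap to its nearest neighbour over the whole range, which chance passes in about 1 group in 20. The TPM of Nr3c1 was flagged for replicate 5, at 6.00 TPM, where its counts were 2.78 times background. Replicate 5 was also the library that stood apart for Nr3c2 at 10.1 TPM, Esr1 at 4.06, Klf12 at 7.80, Nedd4l at 3.43, H6pd at 2.05 and Abcb1b at 2.51 TPM, each the highest of the 6, and for Hspa8 at 9.64 and Gadd45g at 12.7 TPM, each the lowest. Its background of 327 counts per Mb was flagged as well. Bag1 stood apart in replicate 2 at 26.4 TPM, and Fkbp2 in replicate 6 at 32.0 TPM. No flag fell on Klf15, Klf9, Fkbp5, Tsc22d3, Sgk1 or Zbtb16.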

How the results depend on the processing

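Counts of genes between the sets depended on the test. Beside edgeR's 1 higher and 0 lower in set B, DESeq2 called 794 and 227, and edgeR with no filter on low counts 790 and 203. Leaving out each library in turn gave 0 to 1656 genes higher and 0 to 561 lower, the highest without replicate 4, with 366 and 369 without replicate 5. Klf15, Fkbp5 and Tsc22d3 passed under DESeq2, with no filter, without replicate 4 and without replicate 5, and under no other alternative run, while Klf9, Zbtb16, Nr3c1 and Sgk1 passed under none. Over the alternatives with a test the log2 difference of Klf15 ranged from -1.52 to -1.07, of Fkbp5 from -1.42 to -1.07 and of Tsc22d3 from -1.38 to -1.01, with adjusted p up to 0.30 for each. With background subtracted, a choice made after seeing the data, they were -1.31, -1.47 and -1.43. The difference of Sgk1 turned to -0.14 with no filter and -0.046 with background subtracted, and over left-out libraries ranged from -0.10 without replicate 2 to 0.24 without replicate 5, with -0.045 without replicate 4, and the cause was not tested. With gene span in place of exon length Zbtb16 minus Klf15 was -1.62, Klf9 minus Sgk1 1.25 and Sgk1 minus Tsc22d3 -0.0048, since long introns enter the length. A pseudocount of 0.1, background subtraction, a total without ribosomal RNA and each left-out library kept the 6 differences between neighbours within 1 SD. No paired analysis was possible because all libraries belong to 1 group. Depth limits Tsc22d3 most, at 36 counts in replicate 5.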
